A study of Homo sapiens with 30 samples.

Results

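Messages of the actin, tubulin and vimentin genes were followed through a screen of RNA-guided adenosine deaminases in HEK 293T cells, an established line derived from human embryonic kidney. The 8 genes were ACTB and ACTG1 (cytoplasmic beta- and gamma-actin), TUBA1A, TUBA1B and TUBA1C (alpha-tubulins), TUBB and TUBB4B (beta-tubulins) and VIM (vimentin). All sites of the deposited table in GENCODE release 29 exons of these genes were taken, without pseudogenes, and they numbered 1133 of 382978. ACTG1 held 218 of them, ACTB 176, TUBB 156, TUBA1B 153, VIM 153, TUBB4B 125, TUBA1C 89 and TUBA1A 63. At each site the table gives the share of reads with the edited base, a G where the message has an A.

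Among the 22 deaminase libraries, 16 expressed a deaminase domain (DD) of ADAR1 or ADAR2 fused to MCP, the phage coat protein that binds MS2 hairpins. These 16 crossed 4 factors: the E-to-Q form (E1008Q in ADAR1, E488Q in ADAR2) or wild type, ADAR2 or ADAR1, an NLS for nuclear import or an NES for nuclear export, and the MS2 adRNA guide present or absent. Full-length ADAR2, E488Q or wild type, was expressed with or without the GluR2 adRNA in 4 libraries, and Cas13b-ADAR2 DD (E488Q) with or without its gRNA, driven by a U6 promoter, in 2. The controls were 3 transfections of a guide alone, 1 GFP transfection and repeated sequencing runs of a single untransfected library, of which runs 2, 3 and 4 were used. Plasmids were transiently transfected, cells were harvested at 60 h, and construct amounts, promoters of the deaminases and the fraction of transfected cells were not given. Each condition was 1 library, so a value of a single condition has no replicate error, and an SD is over libraries or over matched pairs of constructs.

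Actin and tubulin are the subunits of actin filaments and microtubules, and vimentin forms the intermediate filaments of cells of mesenchymal type. Beta- and gamma-actin, and the members of each tubulin class, are nearly identical proteins made from separate genes, so their coding sequences differ mainly at silent positions. ADAR enzymes convert adenosine to inosine in double-stranded RNA, inosine is read as G, and a change in a codon can alter the encoded residue.

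Read counts are not part of the table, which leaves the depth unknown, and counting intervals cannot be given. A call at a site required an adjusted p under 0.01 for that library in the authors' deposited table and a share over the untransfected mean. In those runs the 1133 sites averaged 0.160%, and the SD between runs at a site averaged 0.0878 points. Among the controls, 0 of the 1133 sites were called in the authors' deposited table. Over all sites the calls reached 0.00366% with MS2 adRNA alone, 0.0047% with GluR2 adRNA alone, 0.00601% with the Cas13b gRNA alone and 0.00157% with GFP, and 0%, 0.000261% and 0.00104% in untransfected runs 2, 3 and 4. The labelled cell line was not checked against marker genes, because no expression level was used here.

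The sequence around a choice of the sites that carry the results is shown first, because the same codon is edited to very different extents in sister genes. Each line gives 25 nt of the GENCODE release 29 transcript, 5′ to 3′ with T for U, and the capital marks the edited adenosine. Codons are numbered from the initiator methionine, and coordinates are on GRCh38.
ACTG1 E107G: tgctgctgaccgAggcccccctgaa
ACTB E107G: tgctgctgaccgAggcccccctgaa
ACTB H73R: accccatcgagcAcggcatcgtcac
ACTG1 H73R: accccattgagcAtggcatcgtcac
ACTG1 M47V: gtcatggtgggcAtgggccagaagg
ACTG1 K18R: ccggcatgtgcaAagctggttttgc
TUBB4B R318G: gccgccgtgttcAggggccgcatgt
TUBB4B M388V: cagttcacggccAtgttccggcgca
TUBB4B E401G: ggtacacgggcgAgggcatggacga
TUBB4B Y398C: tcctgcactggtAcacgggcgaggg
VIM Y38C: ccacccgcacctAcagcctgggcag
The ACTG1 and ACTB windows at E107 are the same 25 bases, and the nearest difference between the coding sequences lies 14 nt away. The ACTG1 sites are on the minus strand of chromosome 17 (E107G at position 81511946, H73R at 81512048, M47V at 81512127, K18R at 81512302), and the ACTB sites are on the minus strand of chromosome 7 (E107G at 5529204, H73R at 5529306). The TUBB4B sites are on the plus strand of chromosome 9 (R318G at position 137243170, M388V at 137243380, E401G at 137243420, Y398C at 137243411), and VIM Y38C is on the plus strand of chromosome 10 at 17229535. TUBB4B E401G was added after its values were seen.

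Sites in the cytoskeletal messages were called more often than the average site of the table and were edited to a lower level. In the authors' deposited table, a mean of 27.8% of the 1133 sites was called per deaminase library, against 16.7% of all sites, and the percentage was above that of all sites in 22 of 22 libraries. The mean share was below that of all sites in 22 of 22 libraries, with a ratio between 0.239 and 0.482. The lowest count was 25 sites (2.21%) in full-length ADAR2 without guide, where 1.5% of all sites were called. The highest was 759 sites (67.0%) in the library of MCP-ADAR1 DD (E1008Q)-NES that had no guide, where 59.2% of all were called, and its mean share was 3.80% over the cytoskeletal sites and 11.4% over all sites. Among the MCP fusions the E-to-Q forms of ADAR1 had the most calls: with NES and guide 59.8% of the cytoskeletal sites were called (51.1% of all sites), with NLS and guide 49.2% (28.9%) and with NLS and no guide 45.6% (23.5%). Wild-type MCP-ADAR1 had 37.0% with NES and guide (26.4%), 38.0% with NES and no guide (30.3%), 20.6% with NLS and guide (7.45%) and 18.6% with NLS and no guide (5.35%). In MCP-ADAR2 DD (E488Q) the calls were 27.2% with NES and guide (11.2%) and 22.6% with NES and no guide (9.21%). In wild-type MCP-ADAR2 DD they were 13.2% with NES and guide (5.29%), 7.86% with NES and no guide (2.48%), 4.50% with NLS and guide (1.24%) and 6.27% with NLS and no guide (0.982%). Among the 16 MCP libraries the wild-type ADAR2 ones had the fewest calls. The order of the percentages turned round when a rise of at least 5 points was also required: 6.60% of the cytoskeletal sites and 13.1% of all sites then passed per library, and the cytoskeletal percentage was higher in 0 of 22 libraries.

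**Figure D1:**
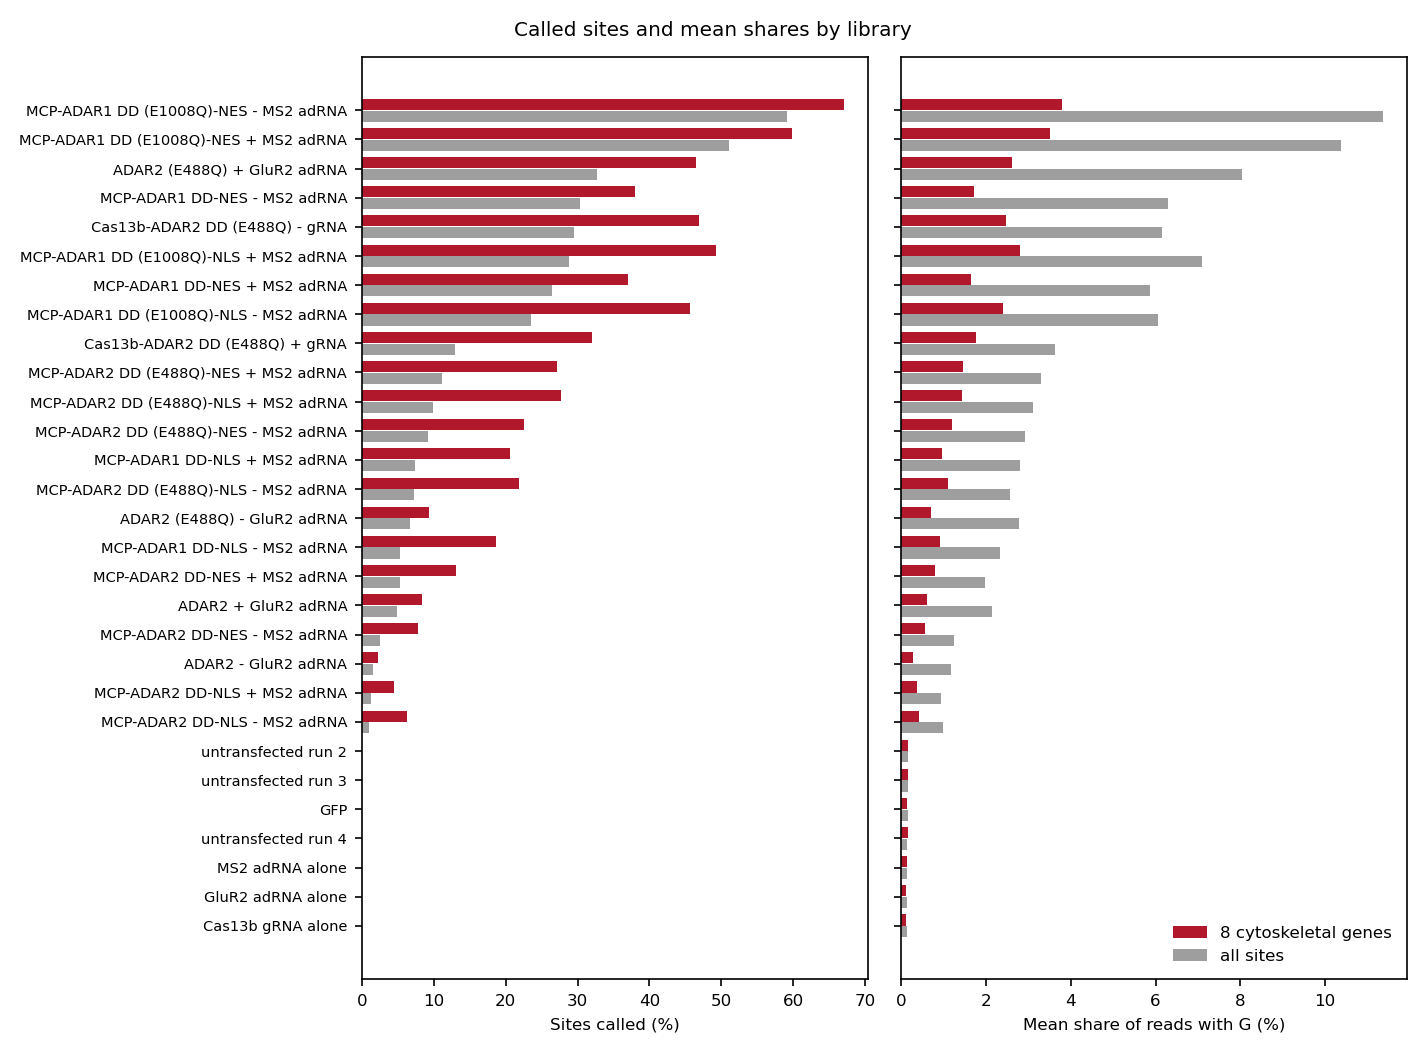
Percentage of sites called (left) and mean share of reads with G in % (right) in each of 29 libraries, with the 8 cytoskeletal genes above all 382978 sites in each pair of bars. The bars of the 8 genes are longer on the left and shorter on the right in all 22 deaminase libraries, for example 67.0% against 59.2% called and 3.80% against 11.4% mean share in the top library.

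Most sites in these genes were edited at low levels. The median over the 1133 sites of the mean share across the 22 libraries was 0.671%, against 2.72% over all sites, and 5.47% of them reached a mean of 5%, against 26.8% of all. Of the 1133, 1129 (99.6%) were called in at least 1 deaminase library of the authors' deposited table, a property of nearly every listed site (100% of all). Calls in exactly 1 library made up 21.0% (238 sites; 36.5% of all), in at least 11 libraries 20.2% (229 sites; 6.63% of all) and in all 22 libraries 0.794% (9 sites; 0.13% of all). The 9 were K18R of ACTG1, 2 sites of its 3′ UTR at chromosome 17, positions 81510465 and 81510405, K359R of ACTB, R318G and M388V of TUBB4B, and a 5′ UTR site (chromosome 10, position 17229399), R13G and Q252R of VIM.

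Of the 3721 adenosines in the 8 reference messages, 30.0% were listed. The share was highest in ACTG1 (50.8%), ACTB (42.9%) and TUBA1B (41.8%), intermediate in TUBB4B (36.4%), VIM (31.0%) and TUBB (25.5%), and lowest in TUBA1C (13.2%) and TUBA1A (12.8%). TUBA1C had 0 listed sites among the 330 adenosines of its 3′ UTR. Coding sequence held 914 of the 1133 sites, 3′ UTRs 183 and 5′ UTRs 27. Of the 908 coding sites with an A in the reference message, 760 (83.7%) changed the residue, 144 were silent, 2 removed a start codon and 2 a stop codon. Lysine to arginine was the most frequent change, at 112 sites with a mean share of 2.11%, followed by glutamine to arginine at 92 and glutamate to glycine at 87.

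Listed adenosines were followed by G in 47.6% of cases, against 29.5% of all adenosines in these messages, and preceded by G in 19.2%, against 28.9%. Among the 54 sites with a mean gain of at least 5 points over the untransfected runs, 57.4% had G on the 3′ side and 3.70% had G on the 5′ side. AAG was the triplet most often listed (66.8% of 265 adenosines) and GAA the least (8.27% of 254). ACTG1 E107G, the site with the highest mean share, carries G on both sides.

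Summed over the sites of a message, the shares above the untransfected level give the mean number of edits per message at listed sites. The sum is partial, since the listed part of the adenosines ran from 50.8% in ACTG1 to 12.8% in TUBA1A, and the order of genes holds only within this listing. By this sum ACTG1 carried 3.29 ± 2.38 edits per message (SD over 22 libraries), VIM 2.62 ± 1.68, ACTB 2.29 ± 2.07, TUBA1A 1.68 ± 1.22, TUBB4B 1.65 ± 1.84, TUBA1B 1.45 ± 1.31, TUBB 1.24 ± 1.32 and TUBA1C 1.15 ± 0.948. Neighbours in this order differed by less than their SD over libraries. That SD is a spread over constructs and not an error of the difference between genes, which share the same libraries. The order also changed with the construct. ACTB averaged 6.19 and VIM 4.96 in MCP-ADAR1 DD (E1008Q), against 1.90 and 2.47 in MCP-ADAR2 DD (E488Q). Per kb of message the values ran from 1.64 in ACTG1 and 1.40 in VIM to 0.383 in TUBA1C. Possible paralog reads (35 sites, whose base in the message is not A or whose aligned base in a sister gene is G) were left out of these sums.

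The highest single value belonged to TUBB4B, with 9.04 edits per message in full-length ADAR2 (E488Q) with GluR2 adRNA. ACTG1 reached 7.57 and ACTB 7.01, both in the MCP-ADAR1 DD (E1008Q)-NES library that lacked the guide. In the control libraries no message was above 0.0397 edits.

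**Figure D2:**
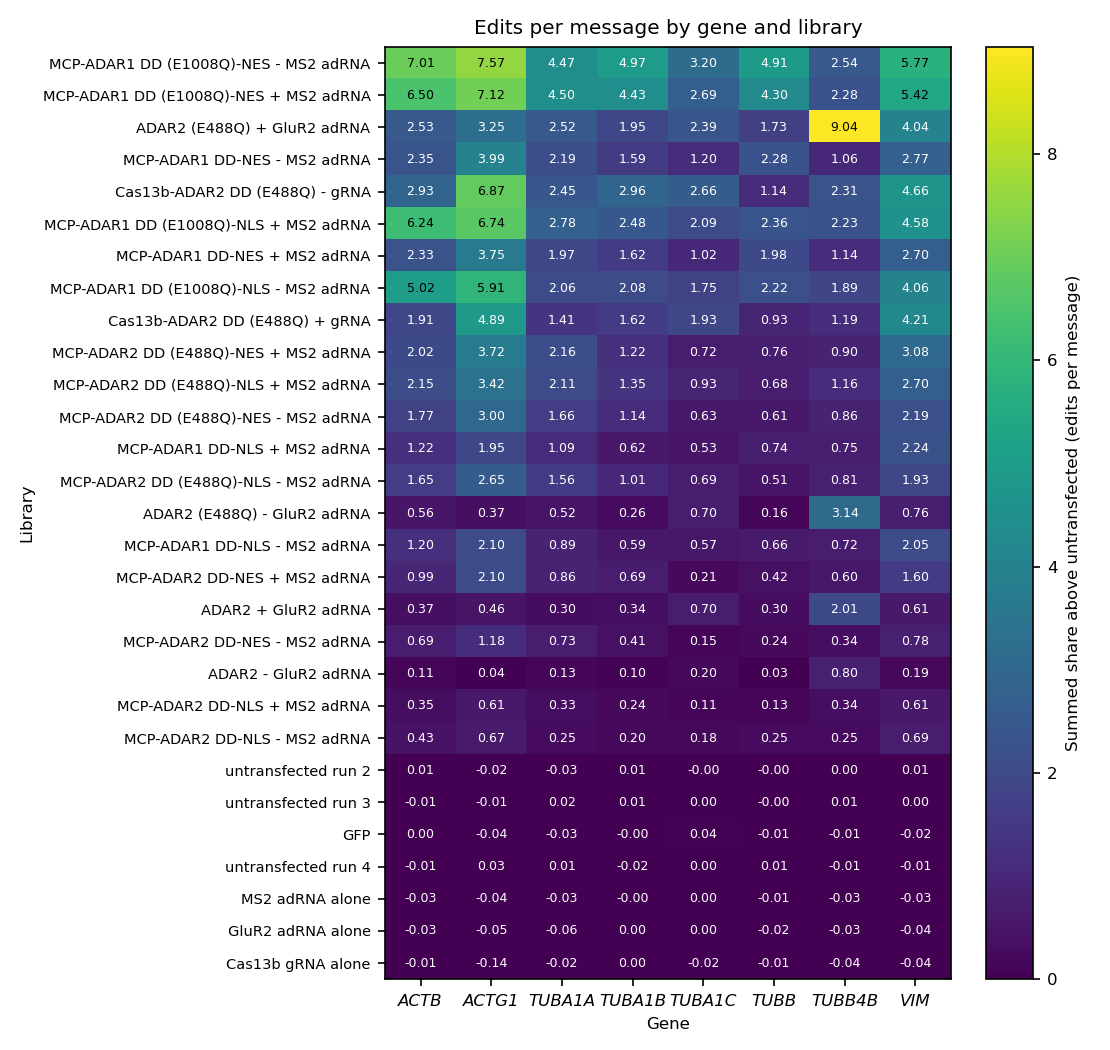
Edits per message (summed share above the untransfected mean over listed sites, colour scale and printed values) for 8 genes (columns) in 29 libraries (rows, deaminase libraries above controls, ordered by calls over all sites). Most genes peak in the MCP-ADAR1 DD (E1008Q) rows, with ACTG1 at 7.57, whereas TUBB4B peaks at 9.04 in full-length ADAR2 (E488Q) with guide.

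Among the actin sites, ACTG1 E107G had the highest mean share of all 1133, 25.8 ± 19.2% over the 22 libraries (SD), against 0.320% in the untransfected runs. In MCP-ADAR2 libraries it stood at 42.5, 47.6, 48.6 and 49.1% with E488Q and at 13.0, 19.5, 28.5 and 38.7% in wild type. In MCP-ADAR1 libraries it stood at 45.0, 50.0, 50.4 and 50.9% with E1008Q and at 9.55, 10.3, 12.6 and 13.7% in wild type. E-to-Q and wild-type values did not overlap within either enzyme. Full-length ADAR2 gave 1.18 and 5.86% with E488Q and 0.330 and 0.600% in wild type, below all 16 MCP libraries, and the Cas13b fusion gave 11.5 and 18.3%.

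ACTB H73R changes the histidine that SETD3 methylates in actin. Its mean share was 18.2 ± 17.8%. In MCP-ADAR2 it was 11.1, 12.0, 13.3 and 13.6% with E488Q and 3.24, 4.05, 5.46 and 5.61% in wild type. In MCP-ADAR1 it was 47.4, 52.7, 54.2 and 55.2% with E1008Q and 18.8, 20.6, 22.6 and 23.0% in wild type. All 8 ADAR2 fusions lay below all 8 ADAR1 fusions.

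ACTG1 T89A had the highest share of the actins in a single library, 65.4% in MCP-ADAR1 DD (E1008Q)-NES with guide. The other 3 MCP-ADAR1 DD (E1008Q) libraries had 52.2, 56.3 and 64.1%, and the 4 wild-type ones 8.15, 8.23, 12.6 and 12.9%. In full-length ADAR2 the same site had 0.153 and 1.53% with E488Q and 0.142 and 0.509% in wild type, and 3 of these 4 values were below those of all other deaminase libraries. ACTG1 M47V, at a methionine that MICAL enzymes oxidise, had the same order, with a mean of 0.554% in full-length ADAR2 (E488Q), 10.6% in MCP-ADAR2 DD (E488Q) and 47.5% in MCP-ADAR1 DD (E1008Q).

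ACTG1 K18R was called in all 22 libraries of the authors' deposited table, from 1.31% to 33.2% with a median of 12.2%. ACTB K359E (chromosome 7, position 5527801) averaged 16.9 ± 11.7% and was called in 21, its neighbour K359R at position 5527800 averaged 6.13 ± 4.17% and was called in 22, and ACTB K238R (5528370) averaged 14.8 ± 13.1%. Both adenosines of the K359 codon, AAG, were edited, the first to a higher mean level than the second.

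In the alpha-tubulins the high sites included silent ones shared between genes. At the V204 codon, GTA in each message, the mean share was 13.1 ± 11.9% in TUBA1A, 8.57 ± 8.01% in TUBA1C and 8.06 ± 8.74% in TUBA1B. K280K averaged 10.5 ± 7.36% in TUBA1A, 7.67 ± 5.63% in TUBA1B and 1.60 ± 1.63% in TUBA1C. TUBA1C T381A (chromosome 12, position 49273018) averaged 12.5 ± 13.1%, with 23.0, 26.9, 35.3 and 40.9% in MCP-ADAR1 DD (E1008Q). K401R averaged 7.76 ± 7.12% in TUBA1B and 4.70 ± 3.98% in TUBA1C. The remaining high sites were a TUBA1A position outside its reference transcript at chromosome 12, 49188997 (8.79 ± 11.8%), which also lies in an exon of TUBA1C on the other strand, and the TUBA1C 5′ UTR position 49265178 (6.98 ± 6.14%). Lysine 40, the acetylation site in the microtubule lumen, was edited to arginine at low levels, and this codon was chosen after its values were seen. K40R averaged 2.55 ± 2.52% in TUBA1A, 2.32 ± 2.39% in TUBA1B and 1.69 ± 1.79% in TUBA1C. In the untransfected runs it stood at 0.692% in TUBA1A, 0.0472% in TUBA1B and 0.249% in TUBA1C. These levels are part of the means, which therefore do not rank the genes by rise over the untransfected runs. K40R was called in 1 deaminase library in TUBA1A, 15 in TUBA1B and 8 in TUBA1C.

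In TUBB4B, R318G averaged 19.7 ± 14.5% and M388V 16.5 ± 12.3%, both called in all 22 libraries of the authors' deposited table. K392R of TUBB4B (chromosome 9, position 137243393) averaged 9.52 ± 8.73%. In TUBB the highest site was the middle base of the stop codon TAA (chromosome 6, position 30724396), with a mean of 11.0 ± 12.2% and 41.6% at most, and the edited codon is again a stop. TUBB also had S78S (30722985) at 5.30 ± 7.24% and the 3′ UTR position 30724418 at 6.69 ± 9.51%. At TUBB S78S the aligned base of TUBB4B is G, so reads of both messages could be confused there. The untransfected runs held 0.204%.

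In VIM, Y38C in the head domain averaged 18.2 ± 12.1% and was called in 21 libraries of the authors' deposited table. The 5′ UTR position 17229399 averaged 16.8 ± 8.91% and A216A (position 17233610) 12.4 ± 8.77%. R13G and Q252R (17229459 and 17233804) averaged 3.81 ± 2.25% and 9.05 ± 7.13%. In all, 93 of the 153 VIM sites also lie in exons of another annotated gene, such as VIM-AS1 for Y38C, and reads of overlapping genes cannot be told apart here.

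Start and stop codons were edited to low levels, apart from the middle base of the TUBB stop codon. The initiator ATG became GTG at 0.436 ± 0.388% in ACTB (M1V, chromosome 7, position 5529657) and 1.01 ± 1.06% in ACTG1 (M1V, chromosome 17, position 81512354). Edits that turn a stop codon into one for tryptophan were listed at codon 376 of ACTB (5527749), with 1.64 ± 2.35% and 7.84% at most, and at codon 446 of TUBB4B (137243555), with 0.872 ± 1.13% and 5.42% at most. The other stop-codon edits left a stop: TUBA1C position 49273227 averaged 1.54 ± 2.99% and the last base of the TUBB stop, position 30724397, 1.69 ± 2.01%. At position 30724397 the aligned base of TUBB4B is G, so reads of both messages could be confused there. At the ACTB stop codon the 4 MCP-ADAR1 DD (E1008Q) libraries averaged 2.42% and the 4 wild-type ones 5.79%.

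The next question was how the enzyme, the E-to-Q substitution, the localisation signal and the guide moved single sites among the 16 MCP libraries. Shares were transformed to arcsine square roots and fitted by limma with the 4 factors as main effects, and p-values were adjusted by the Benjamini-Hochberg method over all 382978 sites, with a threshold of 0.05. With 11 residual degrees of freedom, interactions and noise between libraries enter the error together, so these p-values describe this set of constructs. Protein amounts were not measured, so a construct and its amount cannot be told apart.

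Most sites were lower with ADAR2 fusions than with ADAR1 fusions. By enzyme 670 of 1133 sites passed (59.1%; 68.6% of all sites), 618 lower with ADAR2 (66% of all sites) and 52 higher. When libraries with and without guide were averaged, which leaves 8 samples, the count was 317, with 299 lower and 18 higher. The lower sites were spread over the 8 genes, with 115 in ACTG1, 114 in ACTB, 91 in TUBB, 91 in VIM, 85 in TUBA1B, 46 in TUBA1C, 44 in TUBB4B and 32 in TUBA1A. The median difference was -0.428 points over the cytoskeletal sites and -2.68 points over all sites. ACTB H73R had a lowest, median and highest share of 3.24, 8.38 and 13.6% in ADAR2 fusions and 18.8, 35.2 and 55.2% in ADAR1 fusions (-28.3 ± 12.7 points, SD over 8 pairs, and limma adjusted p = 2.29e-06). ACTG1 T89A averaged 8.99% with ADAR2 and 35.0% with ADAR1 (-26.0 ± 18.5 points; limma adjusted p = 1.59e-05), and ACTG1 M47V 5.74% and 26.8% (-21.0 ± 17.2 points; limma adjusted p = 5.94e-05), each lower in 8 of 8 pairs. Unlike H73R of ACTB, these 2 sites overlapped between the enzymes.

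A minority of sites was higher with ADAR2 (52 of 1133, 4.59%; 2.6% of all sites), most of them in VIM (10), ACTG1 (9), ACTB (8) and TUBA1A (8). ACTG1 K18R had a lowest, median and highest share of 3.96, 18.1 and 30.4% in ADAR2 fusions and 1.31, 7.68 and 14.5% in ADAR1 fusions (9.16 ± 5.63 points, higher in 8 of 8 pairs; limma adjusted p = 0.000188). A 3′ UTR site of ACTG1 (chromosome 17, position 81510326) averaged 10.5% with ADAR2 and 3.77% with ADAR1 (6.68 ± 5.02 points, higher in 7 of 8 pairs; limma adjusted p = 0.00243). A TUBA1A site at chromosome 12, 49184921, outside the reference transcript, averaged 8.57% and 2.14% (6.43 ± 4.89 points, higher in 6 of 8 pairs; limma adjusted p = 0.000991). The ranges of all 3 sites overlapped between the enzymes.

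The E-to-Q substitutions went with higher shares at most sites that passed. By variant 435 of 1133 sites passed (38.4%; 40.4% of all sites), 426 higher with E-to-Q (39.7% of all sites) and 9 lower (0.72% of all). With the libraries with and without guide averaged the count was 116, all of them higher. The higher sites included 80 in ACTG1, 77 in ACTB and 70 in VIM. ACTG1 T89A had a lowest, median and highest share of 13.2, 35.8 and 65.4% with E-to-Q and 0.574, 5.11 and 12.9% in wild type (31.9 ± 18.5 points; limma adjusted p = 1.5e-05). ACTG1 E107G averaged 48.0% with E-to-Q and 18.2% in wild type (29.8 ± 10.5 points; limma adjusted p = 4.51e-05), and ACTG1 M47V 29.1% and 3.44% (25.6 ± 17.2 points; limma adjusted p = 3.73e-05). At all 3 sites the lowest E-to-Q value was above the highest wild-type value, and the difference was positive in 8 of 8 pairs.

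The 9 lower sites included a 3′ UTR site of ACTG1, a coding site of TUBB4B and a coding site of VIM. TUBB4B Y398C had a lowest, median and highest share of 1.16, 2.09 and 3.02% with E-to-Q and 3.36, 7.07 and 17.7% in wild type (-5.80 ± 4.46 points; limma adjusted p = 0.00287). The ACTG1 site at position 81510465 averaged 5.58% and 12.2% (-6.58 ± 5.49 points; limma adjusted p = 0.0106), and VIM S25G (chromosome 10, position 17229495) 1.28% and 3.78% (-2.50 ± 2.53 points; limma adjusted p = 0.0111). All 3 were lower in 8 of 8 pairs, and at Y398C the groups did not overlap. These 3 calls ended when the libraries with and without guide were averaged (limma adjusted p up to 0.134).

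**Figure D3:**
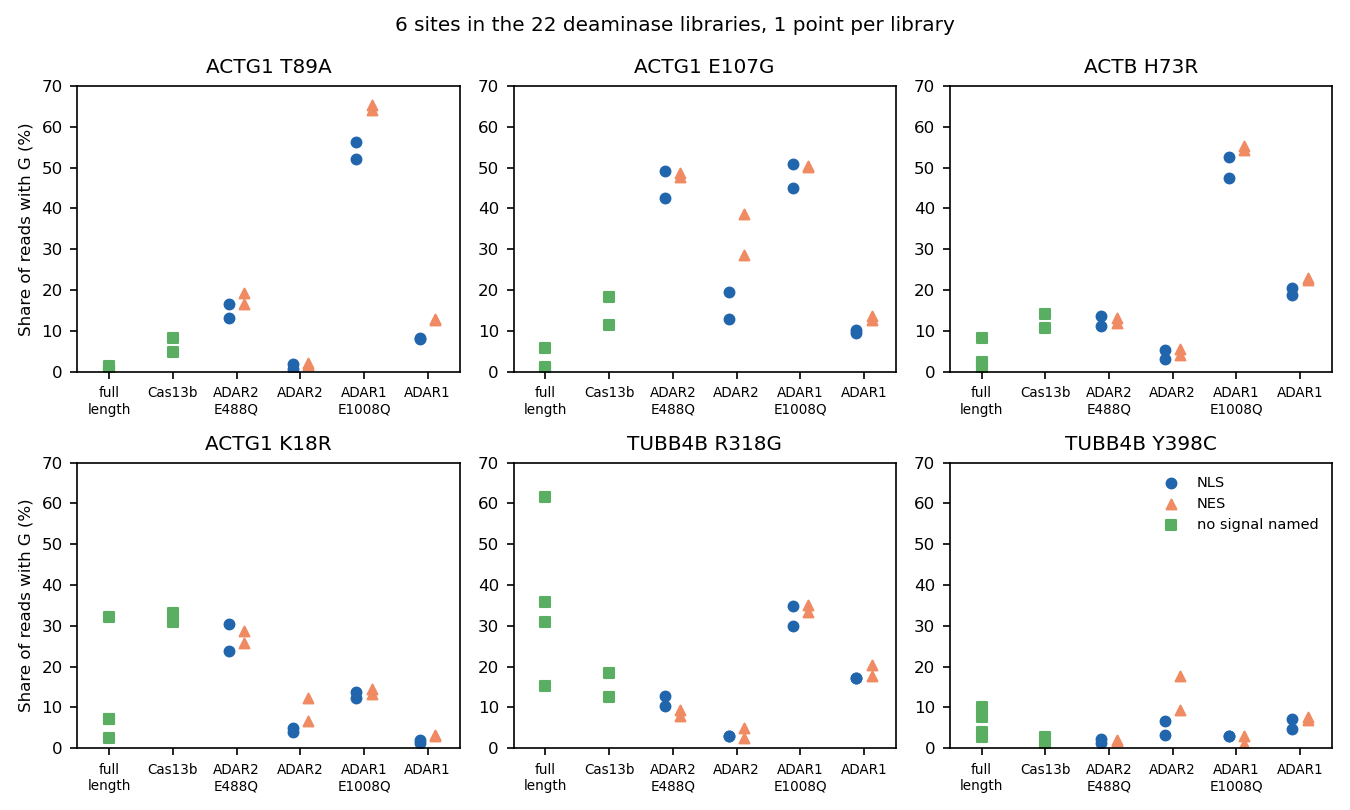
Share of reads with G (%) at 6 sites in the 22 deaminase libraries, 1 point per library, with full-length ADAR2 and Cas13b-ADAR2 DD (E488Q) as squares and MCP fusions split by enzyme and variant (circles NLS, triangles NES). T89A of ACTG1 is at most 1.53% in full-length ADAR2 and reaches 65.4% in MCP-ADAR1 DD (E1008Q), R318G of TUBB4B reaches 61.5% in full-length ADAR2 (E488Q), and Y398C of TUBB4B is highest at 17.7% in a wild-type ADAR2 fusion.

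The E-to-Q effect itself differed between the enzymes at 59 of 1133 sites (5.21%; 3.69% of all sites), the limma test being of the interaction of enzyme and variant. At 57 of the 59 the effect on the arcsine scale was smaller with ADAR2 (3.44% of all sites), and at 2 it was larger (0.248%). At ACTG1 H73R no MCP-ADAR2 library was above 1.13%, whereas MCP-ADAR1 gave 15.9, 18.2, 22.7 and 23.3% with E1008Q and at most 0.748% in wild type. The E-to-Q effect was thus 0.520 points with ADAR2 and 19.4 points with ADAR1 (limma adjusted p = 0.000899). It was 14.9 points with ADAR2 and 49.0 points with ADAR1 at ACTG1 T89A (limma adjusted p = 0.00963), and 9.70 and 41.5 points at ACTG1 M47V (limma adjusted p = 0.00658). From wild type to E-to-Q, the M47V means went from 0.885 to 10.6% with ADAR2 and from 5.99 to 47.5% with ADAR1. At T89A they went from 1.55 to 16.4% and from 10.5 to 59.5%. Relative to wild type the rise at M47V and T89A was thus not smaller with ADAR2, unlike at ACTG1 H73R, so the order depends on the scale. The count of 59 was 81 without MCP-ADAR1 DD (E1008Q)-NLS lacking guide. It was between 30 and 38 without either MCP-ADAR2 DD-NLS library, either MCP-ADAR2 DD (E488Q)-NES library, MCP-ADAR2 DD (E488Q)-NLS lacking guide, either MCP-ADAR1 DD-NLS library or either MCP-ADAR1 DD (E1008Q)-NES library.

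Some of these sites were the same codon in sister genes, named here after their values were seen. D249G of TUBB4B averaged 0.303% in MCP-ADAR2 DD (E488Q) and 15.5% in MCP-ADAR1 DD (E1008Q), and D249G of TUBB 0.101% and 6.29% in the same groups of 4 libraries. I234V averaged 0.583% with ADAR2 and 18.1% with ADAR1 in TUBA1B, and 0.249% and 13.7% in TUBA1C. The untransfected runs held 0.190% at I234V of TUBA1B and 0.599% at that of TUBA1C, so the ADAR2 value in TUBA1C was not above background. ACTB Y169C averaged 0.185% with ADAR2 and 16.1% with ADAR1. Each of these 5 sites passed the interaction test, with limma adjusted p-values from 0.00179 to 0.0172.

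By localisation 3 of 1133 sites passed (0.265%; 3.8% of all sites), all lower with the NLS (3.76% of all sites; 0.0397% were higher). The count was 0 without any of 8 libraries, which were 7 of the 8 MCP-ADAR1 libraries (all but E1008Q-NES with guide) and MCP-ADAR2 DD-NES with guide. It was 6 without MCP-ADAR2 DD-NLS lacking guide and 8 without MCP-ADAR2 DD (E488Q)-NLS with guide. The 3′ UTR site of ACTG1 at position 81510573 averaged 8.78% with NLS and 14.8% with NES (limma adjusted p = 0.0341), the 3′ UTR site of ACTB at position 5527685 1.04% and 3.47% (limma adjusted p = 0.0317), and A289A of TUBA1B (chromosome 12, position 49128447) 1.98% and 4.44% (limma adjusted p = 0.0486), each lower in 8 of 8 pairs. The median difference was -0.201 points over the 1133 sites and -1.46 points over all sites. At an unadjusted limma p under 0.05 the number was 136. It was not counted over all sites, so it cannot be set against them.

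By guide, limma called 0 of 1133 sites (0.000783% of all sites, 3 in number). An unadjusted p under 0.05 was found at 12 of the 1133 and was not counted over all sites. In the 8 MCP pairs the percentage of cytoskeletal sites called in the authors' deposited table was higher with guide in 5, for example 27.7% with and 21.9% without guide for MCP-ADAR2 DD (E488Q)-NLS, where 9.94% and 7.32% of all sites were called, and 59.8% with and 67.0% without guide for MCP-ADAR1 DD (E1008Q)-NES. The other constructs differed more, without replicates. Full-length ADAR2 (E488Q) had 46.5% of the cytoskeletal sites called with and 9.36% without GluR2 adRNA (32.7% and 6.72% of all sites), and Cas13b-ADAR2 DD (E488Q) had 363 sites called with and 532 without gRNA (12.9% and 29.5% of all sites). Wild-type full-length ADAR2 had 8.38% with and 2.21% without GluR2 adRNA (4.85% and 1.5% of all sites).

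TUBB4B stood apart from the other 7 messages in the libraries with full-length ADAR2. For each full-length library, shares were set against the mean of the NLS and NES MCP-ADAR2 libraries of the same variant, both with or both without guide, although the guides differ (GluR2 adRNA and MS2 adRNA). With full-length ADAR2, 61 of 125 TUBB4B sites (48.8%) were higher in 4 of 4 such comparisons and 0 were lower in 4 of 4, where 12.3% of all sites were higher and 14% lower. In the other 7 genes between 1.96% (VIM) and 16.9% (TUBA1C) of sites were higher in 4 of 4, and in ACTG1 37.6% were lower. By the percentage of higher sites TUBB4B ranked 88 of 5225 genes with at least 20 listed sites, whose median was 7.95%. This is a description of single libraries, with no test.

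The pattern was visible in each full-length library. TUBB4B carried 9.04 edits per message with guide and 3.14 without in full-length ADAR2 (E488Q), against 0.812 to 1.16 in the 4 MCP-ADAR2 DD (E488Q) libraries. In wild-type full-length ADAR2 it carried 2.01 with guide and 0.804 without, against 0.253 to 0.596 in the 4 wild-type MCP-ADAR2 libraries. Every full-length value was above every MCP-ADAR2 value of the same variant. For TUBB, the other beta-tubulin, full-length ADAR2 (E488Q) had 1.73 with guide and 0.161 without, on both sides of the 0.505 to 0.759 in MCP-ADAR2 DD (E488Q). Wild-type full-length ADAR2 had 0.303 and 0.0333, against 0.127 to 0.420 in wild-type MCP-ADAR2. In calls of the authors' deposited table, 87.2% of TUBB4B sites and 36.5% of TUBB sites were called in full-length ADAR2 (E488Q) with guide, where 32.7% of all sites were.

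Single TUBB4B sites differed by large amounts. R318G stood at 35.9 and 61.5% in full-length ADAR2 (E488Q) and at 8.02, 9.38, 10.5 and 12.9% in MCP-ADAR2 DD (E488Q). In wild type it stood at 15.2 and 30.9% in full-length ADAR2 and at 2.45, 2.99, 3.00 and 5.06% in MCP-ADAR2. M388V stood at 31.7 and 57.7% with E488Q and 13.3 and 25.0% in wild-type full-length ADAR2. E401G, with 14.6 and 33.6% in E488Q and 7.14 and 14.9% in wild-type full-length ADAR2, was at most 2.33% in the 16 MCP libraries. D304G (chromosome 9, position 137243129) had 20.6 and 46.3% in full-length ADAR2 (E488Q), 0.439 and 2.01% in wild type and at most 3.66% in the MCP libraries. E401G and D304G were named after their values were seen. At these 4 sites both full-length E488Q values were above all 16 MCP values, which reached 35.1% at R318G and 21.3% at M388V. The direction was the other way at 2 ACTG1 sites. E107G averaged 3.52% in full-length ADAR2 (E488Q) and was at least 42.5% in each MCP-ADAR2 DD (E488Q) library. T89A averaged 0.843% in full-length ADAR2 (E488Q) and 16.4% in MCP-ADAR2 DD (E488Q).

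**Figure D4:**
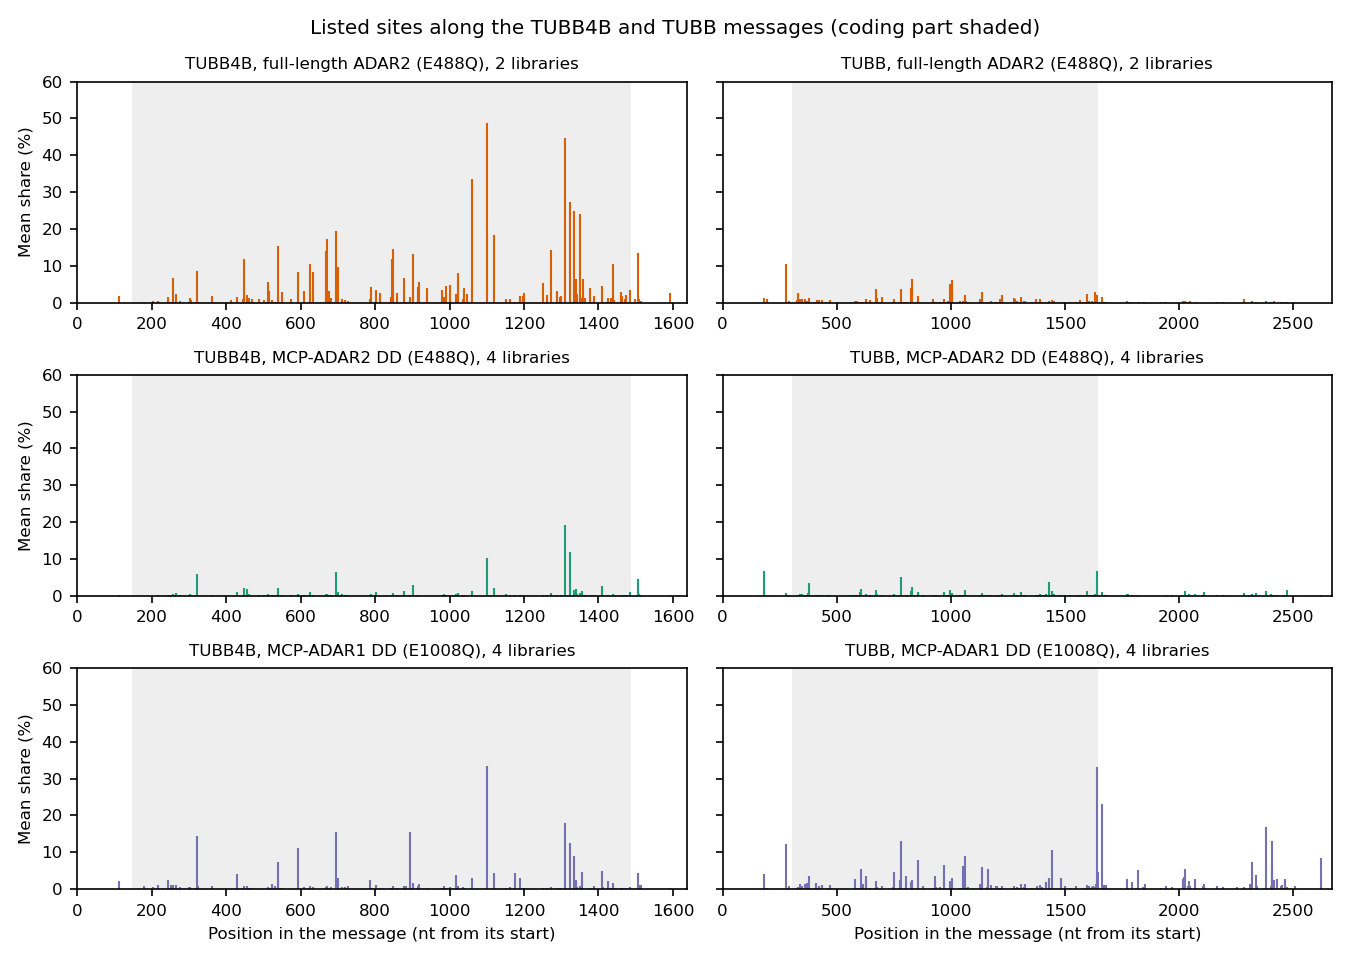
Mean share of reads with G (%) at listed sites against position in the message (nt from its start, coding part shaded) for TUBB4B (left) and TUBB (right) in full-length ADAR2 (E488Q), MCP-ADAR2 DD (E488Q) and MCP-ADAR1 DD (E1008Q) libraries. Sites of possible paralog reads, such as TUBB S78S, are left out. TUBB4B has its tallest lines in full-length ADAR2, with 48.7% at R318G and 44.7% at M388V, whereas TUBB has its tallest in MCP-ADAR1 DD (E1008Q), with 33.2% at the stop codon.

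The Cas13b fusion was compared in the same way, over 2 comparisons with MCP-ADAR2 DD (E488Q). Of the 1133 sites 53.0% were higher in both, against 45.6% of all sites, and 13.6% were lower in both, against 10.6%. TUBA1C had the highest percentage of higher sites (80.9%), followed by TUBA1B (63.4%), ACTG1 (63.3%) and VIM (61.4%), and TUBA1A the lowest (19.0%). The ACTG1 3′ UTR site at position 81510326 stood at 35.1 and 44.1% in the Cas13b libraries and at most at 17.2% in any other deaminase library.

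Sister genes were then compared at aligned adenosines. ACTB and ACTG1 are 98.9% identical in residues and 91.2% in coding bases, and 93 aligned adenosines were listed in both, which is 76.2% of those listed in ACTB and 68.4% of those in ACTG1. Their mean shares differed by more than 2-fold at 49 of 93 positions and were related with r = 0.41 on the log10 scale over the 93 positions, a description over sites that share libraries. Between TUBA1A and TUBA1B, which are 97.2% identical in coding bases, r was 0.79 over 41 positions, 9 of them more than 2-fold apart. Between TUBA1B and TUBA1C it was 0.68, with 20 of 75 positions more than 2-fold apart, and between TUBA1A and TUBA1C 0.66, with 15 of 33. Between TUBB4B and TUBB, 84.6% identical, r was 0.39 over 46 positions, 20 of them more than 2-fold apart.

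The actin pair held the largest contrasts. At E107 ACTG1 averaged 25.8% and ACTB 1.48 ± 1.01%, with at most 3.20% in ACTB in any library, despite the same 25 bases around the adenosine. Within 100 nt on either side the coding sequences differ at 15 positions. At N252, whose 25 bases are also identical, ACTB averaged 9.31 ± 8.14% and ACTG1 0.465 ± 0.265%, and this codon was chosen after its values were seen. H73R averaged 18.2% in ACTB and 4.00 ± 7.84% in ACTG1, T89A 2.68 ± 2.90% in ACTB and 16.7 ± 21.6% in ACTG1, and K359E 16.9% in ACTB and 1.75 ± 1.61% in ACTG1. Of the 14 actin positions listed in both genes with identical 25-base surroundings, 7 differed by more than 2-fold. Reads that do not reach a differing base cannot be assigned to a single actin gene, and the same holds for the tubulins. The handling of such reads by the authors is not known here, so the split between sister genes is uncertain.

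In the beta-tubulins, Y183C averaged 8.16 ± 7.19% in TUBB4B and 2.32 ± 2.97% in TUBB, and K392R 9.52 ± 8.73% and 0.867 ± 1.28%. The middle base of the stop codon averaged 0.872% in TUBB4B and 11.0% in TUBB.

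**Figure D5:**
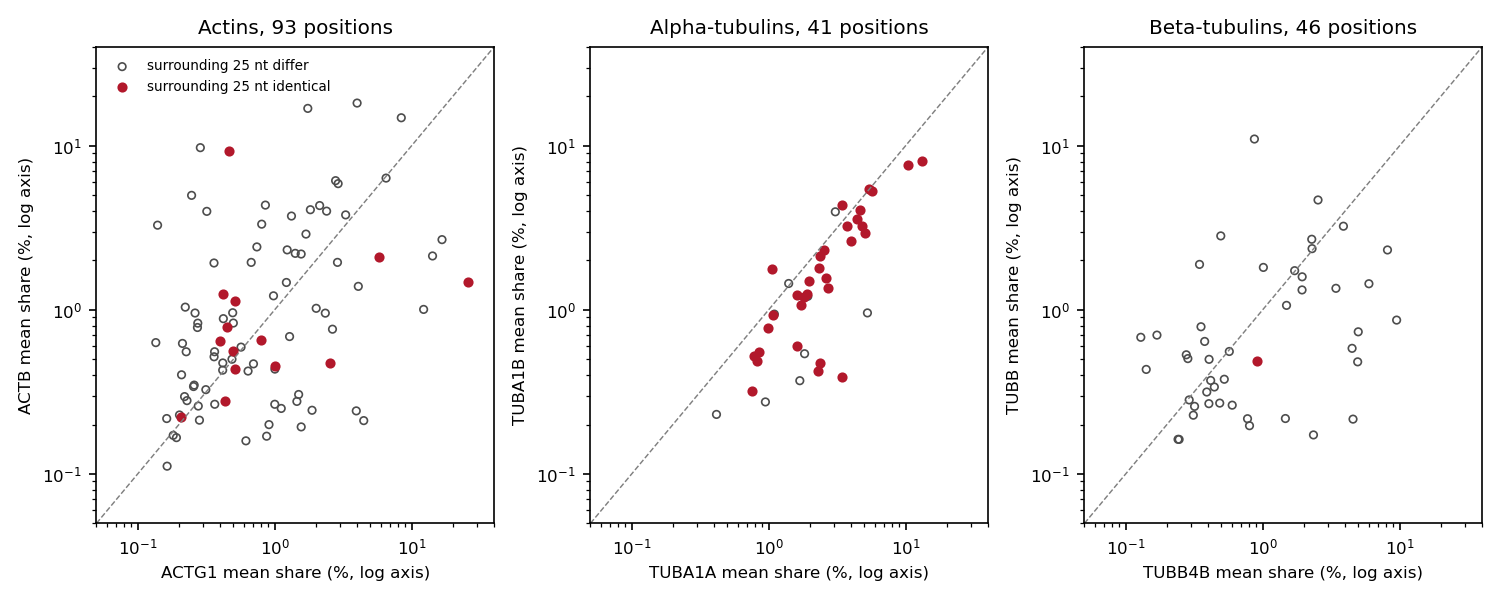
Mean share over 22 deaminase libraries (%, log axes) at aligned coding adenosines listed in both genes of a pair, with filled points where the surrounding 25 nt are identical and the dashed line at equality. Actins scatter widely, with E107 at 25.8% in ACTG1 and 1.48% in ACTB, while TUBA1A and TUBA1B lie closer to the line, with 36 of 41 positions higher in TUBA1A. Of their 303 shared adenosines, 47 were listed in TUBA1A and 142 in TUBA1B. How far the direction follows from this listing was not tested.

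A few listed positions had a signal before any transfection. In TUBA1A, 3 positions of chromosome 12 with a T in the message (49185856, 49185580 and 49185349) had 10.3 ± 2.37, 16.4 ± 2.04 and 14.8 ± 1.32% in the 3 untransfected runs (SD), and 6.20, 8.97 and 7.72% on average in the deaminase libraries. TUBA1B has a C at each of these aligned positions, and all 3 were called in 0 deaminase libraries of the authors' deposited table. An ACTG1 position in an exon outside the reference transcript (81512144) had 9.18 ± 4.55% in the untransfected runs and 14.3% on average in the deaminase libraries, and was called in 1.

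Related cytoskeletal genes had a lower percentage of called sites and higher median shares than the 8 messages. In both they lay nearer to all sites, apart from the called percentage of the other intermediate filament genes. Per deaminase library of the authors' deposited table, a mean of 16.6% of 483 sites in 12 other actin and tubulin genes was called, 22.4% of 717 sites in 9 other intermediate filament genes, 19.3% of 3333 sites in 40 actin-binding and myosin genes and 15.7% of 2778 sites in 34 genes of tubulin folding, microtubule binding and motors. The mean was 27.8% in the 8 messages and 16.7% over all sites. The median of their mean shares was between 1.91% and 2.53%, against 0.671% in the 8 messages and 2.72% over all sites. By variant, between 41.4% and 54.95% of their sites were higher with E-to-Q, against 37.6% of the sites in the 8 messages and 39.7% of all. By enzyme between 59.9% and 64.6% were lower with ADAR2, against 54.5% in the 8 messages and 66% of all.

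The mean share over the 1133 sites was followed most closely over the 22 libraries by BAG6 (r = 0.994), VAT1 (0.993), SLC31A1 (0.992), KHSRP (0.992) and KDELR1 (0.991), out of 5220 genes with at least 20 listed sites. The median r of those genes was 0.903.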

How the data were processed

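Per the labels' protocols, cultures of HEK 293T received plasmids by lipofection, and poly(A) RNA was harvested at 60 h. Library input was 300 ng, sequenced as 100 bp pairs. Tools credited to the submitters' processing notes are STAR 2.6.0c, bcl2fastq 2.18.0.12 and SAMtools, with build GRCh38.p12. The authors deposited a table of the fraction (0 to 1) of reads with the edited base and a table of adjusted p-values, per the file headers. No source used here gives the test behind the p-values, its reference or how sites were chosen. Read counts are absent, so depth and its precision are unknown. Values of 1 unnamed column of the fractions were left out, and with them untransfected run 1. The untransfected samples are repeat runs of 1 library per the labels.

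Sites were joined to GENCODE release 29 exons, and codon effects came from 1 transcript per gene, the APPRIS principal one first. The 2 positions in exons of TUBA1A and TUBA1C on opposite strands were kept with the gene that has A there. Coding sequences of sister genes were aligned through their translations with Biopython 1.88. Calls combined the authors' adjusted p under 0.01 with a share above the untransfected mean. Fractions of the 16 MCP libraries were transformed to arcsine square roots and fitted over all 382978 sites in R 4.3.3 by limma 3.58.1 with an intensity trend. The fit was tested on simulated data. Tables and plots used Python 3.11.15, numpy 2.4.6, pandas 2.3.3 and matplotlib 3.10.9.

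Named sites were the 3 highest per gene by gain over the untransfected runs, the 3 with the largest difference per factor and direction among those past the limma threshold, listed start and stop codon sites, sites called in all 22 libraries, and the 3 highest aligned positions per family, and named other genes were the 5 most alike over libraries. The members and lists were chosen with earlier results of these data known. Alternatives covered the transformation, the trend, a filter on low shares, the model terms, the p threshold, the smallest rise, overlapping annotation and single libraries left out. Leaving out possible paralog reads was added after seeing the data. The sequences around some named sites are not reported here.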

Additional observations from a re-analysis of the deposited data

Results flagged for a closer look

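Results were marked here where the E-to-Q effect differed between ADAR2 and ADAR1 fusions by the test of that difference, the interaction term of limma over all sites. In all, 59 of the 1133 sites met this (5.21%, against 3.69% of all sites). The effects below are means over 4 pairs for each enzyme, with the SD over pairs, and each p is that of the interaction.

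In ACTG1, H73R had an effect of 0.520 ± 0.274 points in ADAR2 and 19.4 ± 3.40 points in ADAR1 fusions (limma adjusted p = 0.000899). M47V had 9.70 ± 1.64 points in ADAR2 and 41.5 ± 3.45 points in ADAR1 fusions (limma adjusted p = 0.00658), and T89A 14.9 ± 2.55 points in ADAR2 and 49.0 ± 3.86 points in ADAR1 fusions (limma adjusted p = 0.00963). In ACTB, H73R had 7.92 ± 1.91 points in ADAR2 and 31.2 ± 1.81 points in ADAR1 fusions (limma adjusted p = 0.0285), and D154G, named after its values were seen, 8.86 ± 1.73 points in ADAR2 and 32.6 ± 3.17 points in ADAR1 fusions (limma adjusted p = 0.0133). At these 5 sites the effect was positive in all 4 pairs of each enzyme. These effects are in points of share. Relative to the wild-type means they were not smaller in ADAR2 at M47V and T89A of ACTG1 and at H73R and D154G of ACTB.

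At the other 5 described sites that met it, the ADAR2 effect lay between -0.0466 and 0.248 points and had no common sign over the 4 pairs, while the ADAR1 effect was positive in all 4. ACTB Y169C had an ADAR1 effect of 15.0 ± 2.11 points (limma adjusted p = 0.00179), TUBB4B D249G 14.2 ± 2.38 points (limma adjusted p = 0.00463), TUBA1C I234V 12.5 ± 2.11 points (limma adjusted p = 0.00601), TUBB D249G 5.70 ± 2.43 points (limma adjusted p = 0.0152) and TUBA1B I234V 16.7 ± 7.4 points (limma adjusted p = 0.0172).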

How the results depend on the processing

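Requiring a rise of 5 points turned round the order of the percentages called, as described above. By enzyme 670 sites passed, and 605 to 673 with single libraries left out. Of the 82 sites with a mean share of at least 5% over the 16 MCP libraries, 62 passed. When libraries with and without guide were averaged, 317 passed. By variant the 435 became 362 to 463, 64 and 116 under the same settings. By localisation the 3 became 0 to 8, 5 and 0, then 0 on untransformed shares, 5 on log2 shares, 14 without the intensity trend and 14 with the interaction in the model. The interaction count of 59 became 30 to 81, 7 of 82 with the filter, and 186 on untransformed shares. Its counts on log2 shares and without the intensity trend are not given here. Averaging left fewer samples and the filter fewer sites; the causes of the other moves were not tested. The guide count was 0 in each, with 0 to 0 when single libraries were left out. With a rise of 5 points required, 372 sites were called in any deaminase library and a mean of 6.60% per library, against 1129 and 27.8%, and leaving out single untransfected runs gave 1129 and 27.8% each time. Sites of possible paralog reads made no count differ by more than 1.5 times, and neither did exons shared with other genes. For the named sites 40 alternatives ended a call, all but 3 of them of the localisation sites, and the other 440 left the call or the share within its spread, with 0 reversals. Unknown depth and single libraries limit every value. No paired analysis was possible because each group is 1 library and groups share fewer than 2 replicate numbers, so no replicate block could be fitted; the pairs in the text are single libraries of constructs matched on the other 3 factors.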
